A study of Mus musculus with 13 samples.

Results

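The genes described here are 28 mouse genes of the peroxisome, 12 peroxins and 16 peroxisomal enzymes and lipid transporters, chosen by name from their known function. The rule itself uses no measured value, but the list was made with earlier results of these data known. All 28 were tested, among 15087 named genes and 24468 features tested in all (a feature is 1 named gene or 1 unnamed transcript of the array). Peroxisomes are small organelles that shorten very long and branched fatty acids, start the synthesis of ether lipids and break down the hydrogen peroxide that their oxidases make. Their matrix proteins are made in the cytosol and brought in by cycling receptors, and peroxins form the docking site, the receptor recycling machinery and the membrane assembly factors. Brown fat is known for abundant peroxisomes, which multiply in the cold and when the nuclear receptor PPARα is active.

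Male C57BL/6J mice gave the adipose RNA, which was hybridised to 1-colour Agilent arrays, 1 array per sample. WAT stands for white and BAT for brown adipose tissue. The WAT groups were untreated wild-type mice (3 arrays, named wild type below), Fv2E-PERK mice given vehicle (2 arrays) and Fv2E-PERK mice given AP20187 (3 arrays). Arrays are called first, second or the third by the replicate number in their labels. The BAT groups were Fv2E-PERK mice given vehicle (2 arrays, numbered 2 and 3) and Fv2E-PERK mice given AP20187 (2 arrays). Fv2E-PERK is an engineered form of PERK, a kinase of the integrated stress response, that the dimerising ligand AP20187 switches on. AP20187 was injected intraperitoneally at 100 ng/g and tissue was taken after 12 h. The vehicle was ethanol, PEG-400 and Tween-20 in water. The series title gives the driver of the transgene only as mAP, and the labels give no age. No wild-type mouse received AP20187 or vehicle and no wild-type BAT was among the arrays, so an effect of the ligand without the transgene cannot be told apart from an effect through it. The treatment protocol speaks of muscle while every tissue label reads WAT or BAT. A further array carried both tissue names in its labels and entered no comparison. Nothing in the labels states that replicates were separate mice, so the p-values measure the spread between these arrays, which may be technical.

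All levels below are log2 signals relative to the 75th percentile of the same array, so a level of 0 is the 75th percentile, and a log2 difference of 1 is a doubling. Levels of different genes come from different probes and are not set against each other. Differences were tested with limma over all features, with 5 groups in 1 fit and Benjamini-Hochberg adjustment, and a gene is said to have risen or fallen only where the adjusted p lay under 0.05. The number of arrays limits the precision of every value.

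Several arrays stood apart from the rest. The first WAT AP20187 array had a mean level of 8.52 over 10 epididymis markers, and the second had 0.21, with all 10 above background on both. The third had a mean level of -5.03 over the same markers, and the wild-type and vehicle WAT arrays lay from -6.02 to -2.98. The 6 adipocyte markers averaged 5.88 on the first WAT AP20187 array, against 8.16 and 7.62 on the others of that group and 6.88 to 7.25 on the other WAT arrays. All 6 were above background on every array. Spots lying in locally weak areas, where a share of the neighbouring spots was far below the other arrays of the tissue, made up 6.20% and 6.38% of the first and second WAT AP20187 arrays and 1.56% of the third. Pex6, Hsd17b4, Gnpat and Cat fell in such an area on the second and Hacl1 on the first. The second WAT vehicle array had the highest level of 7 hepatocyte markers, 3.89, where the other grouped WAT arrays lay from -1.45 to 0.71. In BAT, 8 skeletal muscle markers averaged 0.83 and 5.04 on the vehicle arrays and 4.27 and 3.34 on the AP20187 arrays. The tissue labels were borne out by the brown-fat gene Ucp1, at 9.87 to 10.6 on BAT arrays and at most -3.41 on grouped WAT arrays, and by 6 brown adipocyte markers, at 6.90 to 8.66 in BAT and -0.88 to 1.80 in WAT. The part that each of these differences plays in the results below was not tested, beyond the values given without the arrays or spots concerned. In bulk tissue, fewer cells of a type and less RNA per cell cannot be told apart.

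The pathway of the kinase was examined once as a check of the treatment. Trib3, a target of the integrated stress response, lay at 6.47 and 8.20 on the BAT AP20187 arrays and at 3.0 and 2.56 on the BAT vehicle arrays, a log2 difference of 4.55 (SE 0.62, limma adjusted p = 0.248). In WAT it lay at 1.67, 2.83 and 3.41 with AP20187 and at 1.78 and 2.07 with vehicle (adjusted p = 0.483). Atf4, the transcription factor whose translation the pathway raises, differed by 0.91 in WAT (SE 0.39, adjusted p = 0.221) and by 0.92 in BAT (SE 0.43, adjusted p = 0.709). Ddit3 differed by 0.36 in WAT and by 1.59 in BAT, and Eif2ak3, which encodes PERK itself, by 0.21 and 0.25. None of these 4 passed the adjusted threshold in either tissue, and a probe for the mouse gene need not report the transgene.

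The question of the first comparison was how far the peroxisome genes differ between brown and white fat without activation of the kinase. In vehicle-treated Fv2E-PERK mice, 6 members were higher in BAT and 1 was lower. Those higher were Phyh and Amacr, enzymes of branched-chain fatty acid breakdown, the fatty acid transporter Abcd3, the ubiquitin ligase peroxins Pex2 and Pex10, and the import receptor Pex7. The member lower in BAT was Abcd2, a second transporter of very long fatty acyl-CoA. The background was high: 5732 of 24468 features passed the same test (23.4%), 14.3% higher and 9.16% lower in BAT. The 7 of 28 members that passed are a share near that background. All 12 peroxins and 14 of 16 enzymes and transporters had a positive difference, with medians of 0.58 and 0.67, while the median of all features was 0.11 and 54.9% of them were positive. All BAT arrays of this experiment lie on 1 slide without WAT arrays, so tissue and slide cannot be told apart.

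**Figure D1:**
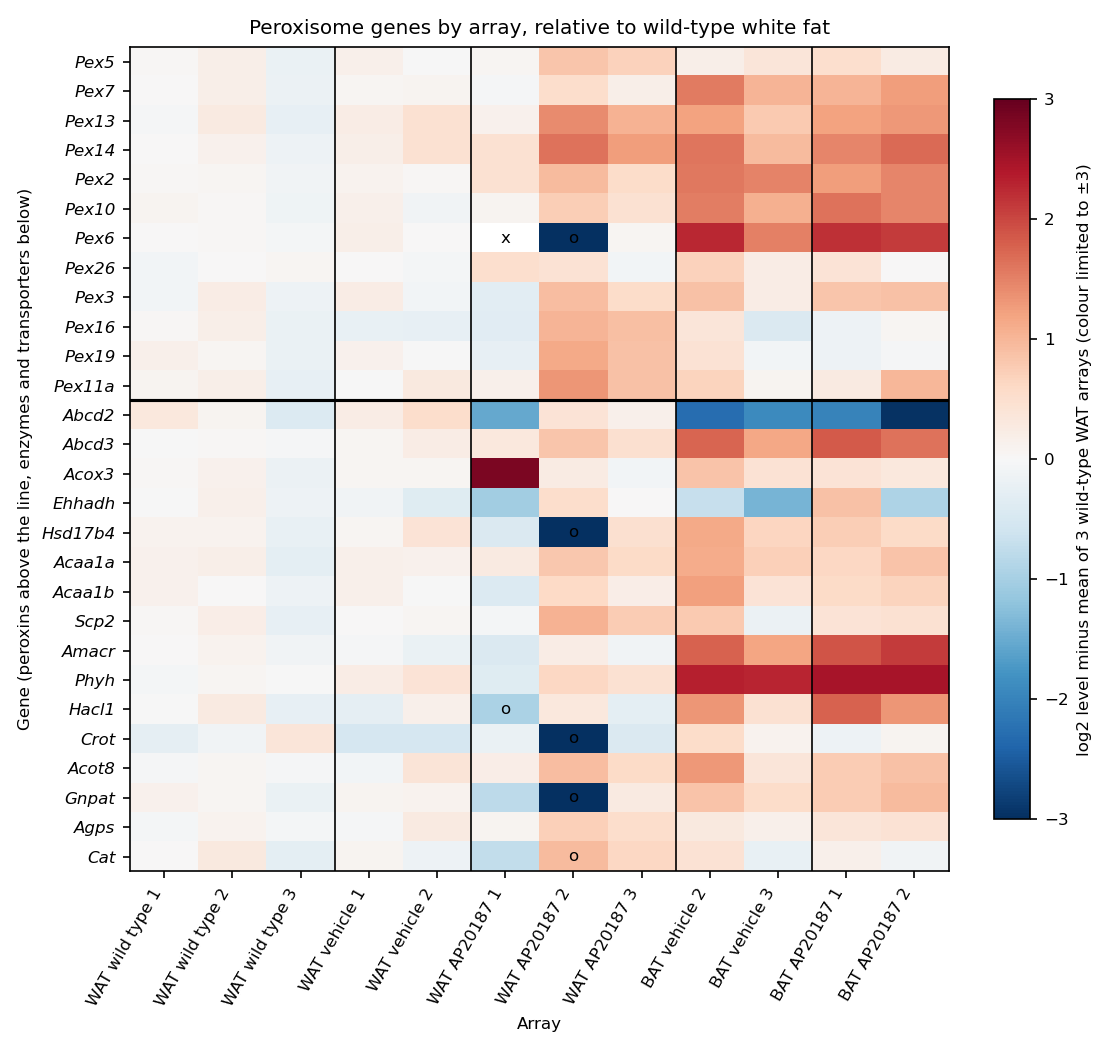
Level of each of the 28 genes on each array, as log2 signal relative to the array's 75th percentile minus the mean of the wild-type WAT arrays; rows are genes by role, columns are arrays by group, an x marks a missing value and an o a spot in a weak area or not above background. The BAT columns are raised for Phyh, Amacr, Abcd3, Pex2, Pex7 and Pex10 and lowered for Abcd2, and the low Pex6, Hsd17b4, Gnpat and Crot cells stand on the second WAT AP20187 array.

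Among the peroxins, matrix import begins with the receptors Pex5, which binds the common C-terminal signal, and Pex7, which binds the rarer N-terminal signal. Pex7 lay at 4.19 and 3.64 on the BAT vehicle arrays and at 2.69 and 2.70 on the WAT vehicle arrays. That was 2.33-fold higher in BAT (log2 difference 1.22, SE 0.25, limma adjusted p = 0.00958), and Pex7 was higher on each of 4 BAT arrays, vehicle and AP20187 together, than on any of 8 WAT arrays. Pex5 lay at 2.66 and 2.83 in BAT and at 2.61 and 2.45 in WAT, a difference of 0.21 that did not pass.

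Docking is done by Pex13 and Pex14. Pex14 lay at 2.95 and 2.30 in BAT and 1.53 and 1.80 in WAT (difference 0.96, SE 0.37, limma adjusted p = 0.095). The pairs of arrays did not overlap, but the test was not passed. For Pex13 the probe used gave a difference of 0.65 and a second probe gave -0.45, both above background on all 12 arrays, so its direction between the tissues depends on the probe.

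The receptors are released by a RING-finger ubiquitin ligase, to which Pex2 and Pex10 belong, and pulled out by an ATPase that includes Pex6, held at the membrane by Pex26. Pex2 lay at 4.29 and 4.21 in BAT and at 2.81 and 2.74 in WAT, 2.78-fold higher (log2 difference 1.47, SE 0.20, limma adjusted p = 0.00135). Pex10 lay at 1.02 and 0.55 in BAT and at -0.38 and -0.62 in WAT, 2.43-fold higher (log2 difference 1.28, SE 0.25, limma adjusted p = 0.00774). Both ligase subunits therefore rose together from white to brown fat, each with no overlap between 4 BAT and 8 WAT arrays. Pex6 lay at 4.90 and 4.15 in BAT and at 2.82 and 2.64 in WAT, a difference of 1.79 with a wide error (SE 1.48, adjusted p = 0.43). The error comes from the shared estimate of spread, to which the WAT AP20187 value in a weak area belongs: without the spots in such areas the same difference had an SE of 0.26 and an adjusted p of 0.0032. A second Pex6 probe gave 0.93. Pex26 lay at 2.37 and 1.90 in BAT and at 1.67 and 1.60 in WAT, a difference of 0.50 that did not pass.

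The remaining peroxins had smaller differences. Pex3, Pex16 and Pex19, which insert peroxisomal membrane proteins, differed by 0.47, 0.21 and 0.12, and Pex11a, which elongates peroxisomes before division, by 0.23. None of these 4 passed, and the BAT vehicle arrays, at 4.92 and 4.13 for Pex16 and at 4.11 and 3.60 for Pex19, lay on both sides of the WAT vehicle arrays. The order of the groups was the same for the ligase peroxins and for Pex7, and not for the membrane assembly peroxins, whose BAT and WAT ranges overlapped; no test of that contrast between roles was made.

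Of the enzymes, Phyh, which starts the breakdown of phytanic acid, had the largest rise. It lay at 7.24 and 7.20 on the BAT vehicle arrays and at 5.15 and 5.33 on the WAT vehicle arrays, 3.95-fold higher (log2 difference 1.98, SE 0.29, limma adjusted p = 0.00204). Amacr, the racemase that readies branched acyl-CoA for oxidation, lay at 4.63 and 4.06 in BAT and at 2.83 and 2.67 in WAT, 3.02-fold higher (log2 difference 1.59, SE 0.26, limma adjusted p = 0.00329). Hacl1, which cleaves the product of Phyh, lay at 4.35 and 3.48 in BAT and at 2.75 and 3.16 in WAT and did not pass (difference 0.96, SE 0.44, adjusted p = 0.148). Each of these 3 had 4 BAT arrays above all 8 WAT arrays, as 14.0% of all features did. So did Hsd17b4, which also acts on branched chains. The ranges of Acox3 and Scp2, which act on such chains too, overlapped. For Acox3 only the first WAT AP20187 array, at 5.18, lay above the lowest BAT value of 2.67. The next highest WAT value was 2.59.

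The ABC transporters that bring acyl-CoA into the peroxisome moved in opposite directions. Abcd3 lay at 6.23 and 5.66 in BAT and at 4.56 and 4.72 in WAT, 2.47-fold higher (SE 0.24 on the log2 scale, limma adjusted p = 0.00543). Abcd2 lay at -1.32 and -0.94 in BAT and at 1.18 and 1.48 in WAT, 5.51-fold lower in BAT (log2 difference -2.46, SE 0.60, limma adjusted p = 0.0195). Both separated 4 BAT from 8 WAT arrays, and the WAT array nearest to BAT for Abcd2 was the first AP20187 array, at -0.57.

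The core oxidation enzymes differed less. Acaa1a and Acaa1b, thiolases for straight-chain acyl groups, differed by 0.76 and 0.77, Acaa1a with an adjusted p of 0.0573. Hsd17b4, the multifunctional enzyme for branched chains, differed by 0.66, the oxidase Acox3 by 0.57 and the lipid transfer protein and thiolase Scp2 by 0.27, where a second Scp2 probe gave -0.39. Ehhadh, the multifunctional enzyme for straight chains and a known PPARα target, lay at 1.32 and 0.62 in BAT and at 1.91 and 1.65 in WAT, a difference of -0.81 that did not pass (SE 0.62). Crot and Acot8, which move shortened acyl groups out as carnitine esters or free acids, differed by 0.83 and 0.68. Gnpat and Agps, the first enzymes of ether lipid synthesis, differed by 0.62 and 0.11, and catalase, Cat, by 0.12, with -0.14 from a second probe. Apart from Ehhadh, the enzymes named in this paragraph had positive differences below those of Phyh, Amacr and Abcd3, and none passed the test. For Hsd17b4, Gnpat and Crot the SEs were 1.90, 1.97 and 1.69. The shared estimate of spread behind them includes a low value of each gene on the second WAT AP20187 array, outside this comparison. The BAT and WAT vehicle arrays did not overlap for these genes, so their failure to pass says little.

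**Figure D2:**
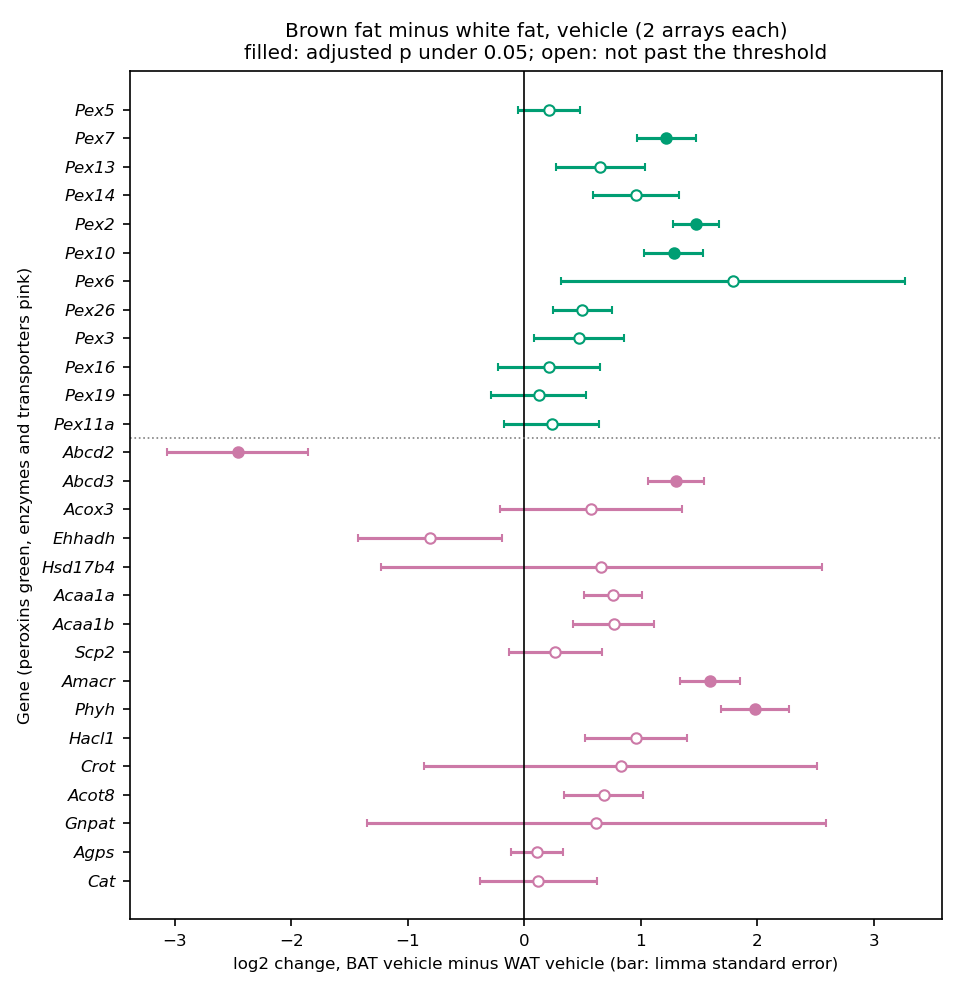
Log2 difference between BAT and WAT vehicle arrays for each of the 28 genes, with its standard error from the fit; filled points passed the adjusted threshold. The 6 genes that rose span 1.22 (Pex7) to 1.98 (Phyh), and Abcd2 stands alone at -2.46.

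Across both treatments, 10 of 28 members had every BAT array above every WAT array and 1, Abcd2, had every BAT array below, where 14.0% and 11.2% of the features measured did so. Between the vehicle groups alone, 18 of 28 members did not overlap and were higher in BAT, beside 39.0% of features. Without the spots in locally weak areas, 9 members passed, Pex6 and Acaa1a in addition, beside 26.7% of features. Single arrays mattered: without the second BAT vehicle array 4 members passed (Abcd3, Amacr, Pex2 and Phyh), without the third BAT vehicle array 8, and without either WAT vehicle array 5, with Abcd3, Amacr, Pex2 and Phyh among them each time. The median differences also moved with the scaling. With quantile normalisation they were 0.35 for peroxins (9 of 12 positive) and 0.26 for enzymes and transporters (10 of 16), with all features at 0.00, and the same 7 members passed. From the value table deposited by the authors, in which part of the values is blank, the medians of both lists were negative and Abcd2 alone passed.

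Genes around the members were taken from lists of known function. Of 48 other peroxisome genes 43 were tested, and 13 rose and 4 fell from white to brown fat, with a median of 0.61. Over all features 14.3% rose and 9.16% fell, which also stands beside the counts of the PPAR lists that follow. Among those that rose were the enoyl-CoA isomerase Ech1, by 2.16, and the very long acyl-CoA synthetase Slc27a2, by 3.61. Uox, urate oxidase, fell by 5.65. The WAT vehicle mean of Uox includes the second vehicle array, the WAT array with the most hepatocyte signal. Between WAT vehicle and wild type Uox differed by 1.33 (SE 1.02). Dao, D-amino acid oxidase, was at least 44.3-fold lower in BAT, where its probe was not well above background. The bound compares the WAT mean with the lowest signal that still counted as above background on the BAT arrays. Of 10 PPAR receptors and cofactors 4 rose and 1 fell; Nrip1, a corepressor, fell by 2.86, and Ppara rose by 4.85 (SE 0.99, limma adjusted p = 0.00871). Of 15 PPAR targets outside peroxisomes 6 rose and 2 fell, among them Cpt1b, the muscle and brown-fat form of the mitochondrial carnitine transferase, by 8.36, and Fabp3 by 10.85. Cpt1a, the liver form, fell by 2.29. Ehhadh, the member best known as a PPARα target, did not pass in this comparison (difference -0.81, SE 0.62). A link between Ppara and the members was not tested.

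Activation of the kinase in white fat was the next comparison. With all arrays, no member passed between AP20187 and vehicle in WAT, with limma as the only tool run; at an unadjusted p under 0.05 there were 2, Pex2 and Pex14. Over all features 550 passed (2.25%) and 5451 did so unadjusted. Of the peroxins, 11 of 12 had a positive difference with a median of 0.49, and of the enzymes and transporters 10 of 16 with a median of 0.07. The median of all features was 0.15 and 58.7% were positive. The scaling shifts this baseline. With quantile normalisation the medians were 0.27 (10 of 12 positive) and -0.15 (5 of 16), with all features at 0.10. When only probes seen above background everywhere set the percentile, they were 0.26 (10 of 12) and -0.16 (7 of 16), with all features at -0.09. The enzyme median therefore turned sign with the scaling and the peroxin median did not.

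The peroxins with the most positive differences were Pex14, Pex16 and Pex11a. Pex14 lay at 1.80, 2.98 and 2.60 on the AP20187 arrays, at 1.53 and 1.80 on the vehicle arrays and at 1.37, 1.48 and 1.20 on the wild-type arrays. Its difference from vehicle was 0.79 (SE 0.34, limma adjusted p = 0.212), and the first AP20187 array was level with the higher vehicle array. Pex16 lay at 4.21, 5.57 and 5.44 with AP20187, at 4.32 and 4.30 with vehicle and at 4.59, 4.72 and 4.35 in the wild type (difference from vehicle 0.76, SE 0.40, limma adjusted p = 0.296). Pex11a lay at 5.69, 6.88 and 6.42 with AP20187, at 5.53 and 5.83 with vehicle and at 5.62, 5.72 and 5.29 in the wild type (difference from vehicle 0.65, SE 0.37). In each of the 3 genes the second and the third AP20187 arrays lay above all vehicle and wild-type WAT arrays. The first did not for Pex16 and Pex11a, and for Pex14 it matched the highest of them to the printed precision.

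Pex2 was steadier. It lay at 3.18, 3.66 and 3.27 with AP20187, at 2.81 and 2.74 with vehicle and at 2.76, 2.77 and 2.61 in the wild type, so all AP20187 arrays lay above the other WAT arrays. The difference from vehicle was 0.59 (SE 0.18, limma adjusted p = 0.107). Between AP20187 and vehicle 2 of 11 peroxins measured on every array did not overlap and were higher, Pex2 and, by a margin lost in rounding, Pex14. Of the 16 enzymes and transporters 2 did so, Abcd3 and Acaa1a, beside 25.0% of all features. The remaining peroxins differed by 0.54 for Pex19, 0.51 for Pex13, 0.47 for Pex5, 0.40 for Pex10, 0.32 for Pex26, 0.31 for Pex3 and 0.16 for Pex7, none past the test.

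**Figure D3:**
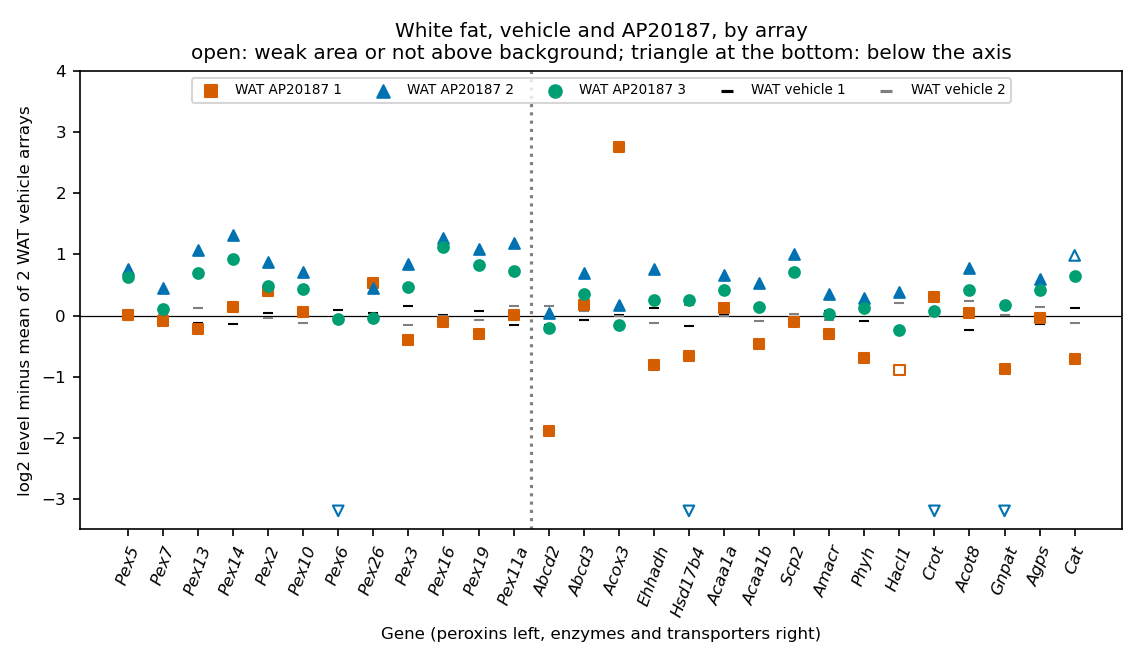
Log2 level of each of the 28 genes in WAT minus the mean of the 2 vehicle arrays, 1 point per vehicle or AP20187 array; open points lay in a weak area or not above background, and those below the axis stand at its lower edge. For Pex14, Pex16 and Pex19 the AP20187 arrays 2 and 3 lie above array 1, while Acox3 is high on array 1 only.

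The first WAT AP20187 array decided these calls. Without it, 4 peroxins passed against vehicle: Pex16 rose by 1.20 (SE 0.26, limma adjusted p = 0.038), Pex14 by 1.12 (SE 0.25, limma adjusted p = 0.04), Pex19 by 0.96 (SE 0.22, limma adjusted p = 0.04) and Pex2 by 0.69 (SE 0.17, limma adjusted p = 0.049). No enzyme or transporter passed. In the same fit 2257 of 24458 features passed (9.23%), and the medians of peroxins and of enzymes and transporters were 0.69 and 0.27. Pex19, the carrier of newly made membrane proteins, lay at 3.44 on the first array and at 4.82 and 4.56 on the others, against 3.81 and 3.66 with vehicle. With the locally weak spots removed as well, 5 of 28 members passed, Pex5 in addition (0.70, SE 0.18, limma adjusted p = 0.048), beside 9.77% of features. The choice to remove that array was made after its values were seen, and it removes the array with the most epididymal and the least adipocyte signal. Those fits kept the second AP20187 array, on which all 10 epididymis markers were also above background (mean level 0.21). With the second array left out instead and the first kept, no member passed against vehicle. The second AP20187 array, with the most adipocyte signal, also had the highest level among the 8 WAT arrays for 21 of 28 members, Pex14, Pex16, Pex19, Pex11a, Pex13 and Pex5 among them. The part of cell make-up in this was not tested.

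The widest negative differences in this comparison, those of Gnpat, Hsd17b4 and Pex6, rested on single spots. Gnpat lay at 4.61, -1.96 and 5.66 with AP20187 and at 5.47 and 5.50 with vehicle (difference -2.71, SE 1.80, limma adjusted p = 0.403). Hsd17b4 lay at 5.45, -0.90 and 6.37 with AP20187 and at 5.94 and 6.28 with vehicle (difference -2.48, SE 1.73, limma adjusted p = 0.425). Among the peroxins, Pex6 was measured on only 2 AP20187 arrays, at -3.08 and 2.68, since its spot on the first was marked an outlier by the scanner software and dropped (difference -2.93, SE 1.48). In each case the low value lay in a weak area of the second array, and without the spots in such areas the differences were -0.35, -0.21 and -0.05. A second Pex6 probe gave -0.09.

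Crot lay at 2.44, -3.76 and 2.20 with AP20187 and at 2.14 and 2.12 with vehicle. Its low value was not well above background and stood outside the weak areas by the rule used, so the difference of -1.83 (SE 1.54) kept its size when those were removed. Acox3 lay at 5.18, 2.59 and 2.26 with AP20187 and at 2.42 and 2.42 with vehicle (difference 0.93, SE 0.71), and a second probe gave 0.62. Without the first array, the one with the most epididymal signal, the Acox3 difference was 0.01. Abcd2 lay at -0.57, 1.37 and 1.12 with AP20187 and at 1.18 and 1.48 with vehicle, a difference of -0.69 that was -0.08 without the first array.

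None of the other enzymes and transporters passed the test. Abcd3 differed by 0.405 (SE 0.22), Acaa1a by 0.40 (SE 0.23) and Agps by 0.32 (SE 0.21). Scp2 differed by 0.54, Acot8 by 0.41 and catalase by 0.31, where a second catalase probe gave -0.14. Hacl1 differed by -0.25, Phyh by -0.09, and Acaa1b, Ehhadh and Amacr by 0.07, 0.07 and 0.02. The signs for Hacl1 and catalase turned when their spots in weak areas were left out. The Hacl1 means were then 3.03 with AP20187 and 2.96 with vehicle, and the catalase means 3.79 and 3.82. Phyh, Amacr and Abcd3, the enzymes and transporter that were higher in brown fat, thus did not pass between AP20187 and vehicle in white fat.

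Outside the members, Paox, a peroxisomal polyamine oxidase, was the only 1 of 43 other peroxisome genes tested to rise. It was measured on 2 AP20187 arrays, at 5.82 and 5.47, and lay at 4.38 and 4.15 on the vehicle arrays (difference 1.38, SE 0.27, limma adjusted p = 0.0483), and it did not pass with slide as a block or with quantile scaling. None of the PPAR receptors, cofactors or targets passed. Fgf21, a hormone gene and target of both PPARα and the integrated stress response, differed by 4.35 (SE 1.12, adjusted p = 0.0746), the fission factor Fis1 by 0.51 (adjusted p = 0.112) and Cpt1a by 0.63 (adjusted p = 0.123).

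The same AP20187 arrays were also set against untreated wild-type WAT, a comparison that shares the treated arrays with the one above. Pex2 rose by 0.65 (SE 0.16, limma adjusted p = 0.041) and was the only 1 of 28 members to pass, beside 2171 of 24468 features (8.87%). Pex14 differed by 1.11 (SE 0.30, limma adjusted p = 0.054) and Pex11a by 0.79. Pex13 lay at 4.13, 5.41 and 5.04 with AP20187 and at 3.98, 4.27 and 3.76 in the wild type (difference 0.86, SE 0.31, limma adjusted p = 0.11), with the first treated array again inside the range of the others. The peroxin median was 0.53 with 11 of 12 positive, and that of the enzymes and transporters was 0.18 with 9 of 16, against 0.16 for all features. Other scalings gave 0.21 to 0.25 for the peroxins and -0.21 to -0.14 for the enzymes and transporters. Without the first AP20187 array 11 of 28 members passed, beside 21.8% of features, and all 11 had risen: Pex14, Pex13, Pex11a, Pex19, Pex16, Pex5 and Pex2 of the peroxins, and Acaa1a, Abcd3, Agps and Phyh. Their differences ran from 0.53 for Phyh to 1.44 for Pex14. The members with a low spot on the second AP20187 array had the widest negative differences here too: Pex6, at 2.66, 2.67 and 2.57 in the wild type, differed by -2.83, Gnpat, at 5.52, 5.46 and 5.20, by -2.62, Crot by -2.34, and Hsd17b4, at 5.98, 5.99 and 5.66, by -2.24. Acox3, at 2.40, 2.49 and 2.18 in the wild type, differed by 0.99, and a second probe gave 0.79. None of these 5 passed.

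The wild-type arrays and the AP20187 arrays lay on different slides, and the vehicle group had 1 array on each. On the slide that holds all the AP20187 arrays and the second vehicle array, the differences were 0.63 for Pex2, 0.66 for Pex14 and 0.77 for Pex16, and the peroxin median was 0.51. With slide as a block, Pex2 differed from the wild type by 0.73 and did not pass (limma adjusted p = 0.937), and none of the features passed (0, with 1303 at an unadjusted p under 0.05).

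Of the other peroxisome genes Paox rose by 1.23 (limma adjusted p = 0.0313) and the fission GTPase Dnm1l by 0.65 (limma adjusted p = 0.0338) against the wild type. Ppard, a PPAR receptor, rose by 0.67 (limma adjusted p = 0.0329) and Fgf21 by 4.56 (limma adjusted p = 0.0331). None of these 4 passed with slide as a block or with quantile scaling.

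Promoters are shown for the docking peroxins Pex14 and Pex13 and for Pex16, which stood among the most positive members in treated white fat, and for Phyh, which had the largest rise in brown fat. Each is the 250 bases before the transcription start, 5′ to 3′ on the gene's strand, from RefSeq on GRCm38.p6. Capitals mark matches to the motifs named after them.
Pex14, chr4:149099844-149100093 (- strand): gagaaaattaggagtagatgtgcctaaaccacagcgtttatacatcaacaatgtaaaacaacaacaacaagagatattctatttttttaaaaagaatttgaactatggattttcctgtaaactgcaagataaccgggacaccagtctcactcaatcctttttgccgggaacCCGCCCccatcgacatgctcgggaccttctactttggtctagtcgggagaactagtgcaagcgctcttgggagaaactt
Pex16, chr2:92374426-92374675 (+ strand): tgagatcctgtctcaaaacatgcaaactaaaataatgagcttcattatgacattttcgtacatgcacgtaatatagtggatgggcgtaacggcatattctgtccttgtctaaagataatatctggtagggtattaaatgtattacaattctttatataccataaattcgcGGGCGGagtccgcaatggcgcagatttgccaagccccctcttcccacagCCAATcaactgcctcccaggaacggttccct
Pex13, chr11:23665884-23666133 (- strand): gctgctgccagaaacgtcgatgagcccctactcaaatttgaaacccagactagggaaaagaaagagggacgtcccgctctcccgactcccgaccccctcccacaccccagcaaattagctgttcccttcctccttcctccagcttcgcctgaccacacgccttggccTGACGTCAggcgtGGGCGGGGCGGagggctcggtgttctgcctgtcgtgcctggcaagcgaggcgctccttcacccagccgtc
Phyh, chr2:4918746-4918995 (+ strand): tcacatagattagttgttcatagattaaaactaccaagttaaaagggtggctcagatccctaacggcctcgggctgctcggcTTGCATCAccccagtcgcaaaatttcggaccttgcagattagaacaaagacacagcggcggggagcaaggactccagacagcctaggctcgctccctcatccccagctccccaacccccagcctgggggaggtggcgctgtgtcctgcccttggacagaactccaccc
Promoters were found for 23 of 28 members, and each was searched on both strands. In Pex14 the capitals are a GC box (GGGCGG, here read on the other strand as CCGCCC), and in Pex16 a GC box and a CCAAT box. In Pex13 they are a cyclic AMP response element (TGACGTCA) followed by overlapping GC boxes, and in Phyh a C/EBP-ATF response element (TGATGNAA, here on the other strand), the kind of site that Atf4 is known to bind. The GC box matched 16 of 23 members and 32.7% of all 32851 promoter windows, and the CCAAT box 11 members and 33.8%. The cyclic AMP element matched 1 member, Pex13, and 1.55% of windows, and the C/EBP-ATF element 1, Phyh, and 3.45%. The PPAR response element in its full direct-repeat form (AGGTCA repeated after 1 base) matched none of the members and 0.0335% of windows. A member was counted if any of its windows matched, while the percentages are shares of single windows, so they are not like measures. A match is a stretch of letters and not a measured site. Phyh, the member with the C/EBP-ATF letters, differed by -0.09 in white fat and by 0.17 in brown fat between AP20187 and vehicle.

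In brown fat, no member passed between AP20187 and vehicle with limma, the only tool run, and none of 28 had an unadjusted p under 0.05. Over all features 2 passed (0.00817%) and 1802 did so unadjusted. The peroxin median was 0.17 with 7 of 12 positive, and that of the enzymes and transporters was 0.06 with 8 of 16, against -0.04 for all features. These medians depended on the vehicle arrays, which differed from each other. Without the second BAT vehicle array the medians were 0.42 and 0.24, and without the third they were -0.07 and -0.28.

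Among the peroxins in brown fat, Pex3 lay at 3.87 and 3.90 with AP20187 and at 3.90 and 3.24 with vehicle, and Pex14 at 2.82 and 3.05 with AP20187 and at 2.95 and 2.30 with vehicle, each with a difference of 0.31. Pex19 lay at 3.52 and 3.65 with AP20187 and at 4.11 and 3.60 with vehicle (difference -0.27). In each gene the groups overlapped. The widest enzyme difference was that of Ehhadh, at 2.88 and 1.09 with AP20187 and 1.32 and 0.62 with vehicle (difference 1.01, SE 0.62, limma adjusted p = 0.814). Hacl1 lay at 4.80 and 4.36 with AP20187 and at 4.35 and 3.48 with vehicle (0.66, SE 0.44). Amacr lay at 4.77 and 4.97 against 4.63 and 4.06 (0.52, SE 0.26), and Abcd2 at -1.04 and -1.995 against -1.32 and -0.94 (-0.39, SE 0.61). The high Ehhadh value stood on 1 array, and the other AP20187 array lay between the vehicle arrays. The third BAT vehicle array had the most skeletal muscle signal and the lowest level of 19 of 28 members among the BAT arrays. None of the other peroxisome genes or PPAR genes passed in BAT; among those with the smallest p were Vnn1, at 1.24 (adjusted p = 0.426), Acot2, at 1.35 (adjusted p = 0.478), and Ppard, at 0.45.

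Whether the white-fat response differed from the brown-fat response was tested as an interaction. No member passed and no feature did (0 of 24468, 0.0%), while 4035 features, and of the members Pex2 alone, had an unadjusted p under 0.05. The response of Pex2 was 0.77 larger in WAT (SE 0.27, limma adjusted p = 0.2), that of Pex19 0.81 larger (SE 0.55) and that of Pex16 0.78 larger (SE 0.60). Pex6, Gnpat and Hsd17b4, each with a spot in a weak area, had the widest differences, -3.19 for Pex6 (SE 2.09), -2.86 for Gnpat (SE 2.67) and -2.23 for Hsd17b4 (SE 2.57), with Crot at -1.48 and Acox3 at 1.19, and none passed. The peroxin median of this difference was 0.38 and that of the enzymes and transporters -0.07, against 0.16 for all features. Pex2 lay at 3.98 and 4.17 with AP20187 and at 4.29 and 4.21 with vehicle in BAT, so its treated white-fat levels stayed below every brown-fat level.

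**Figure D4:**
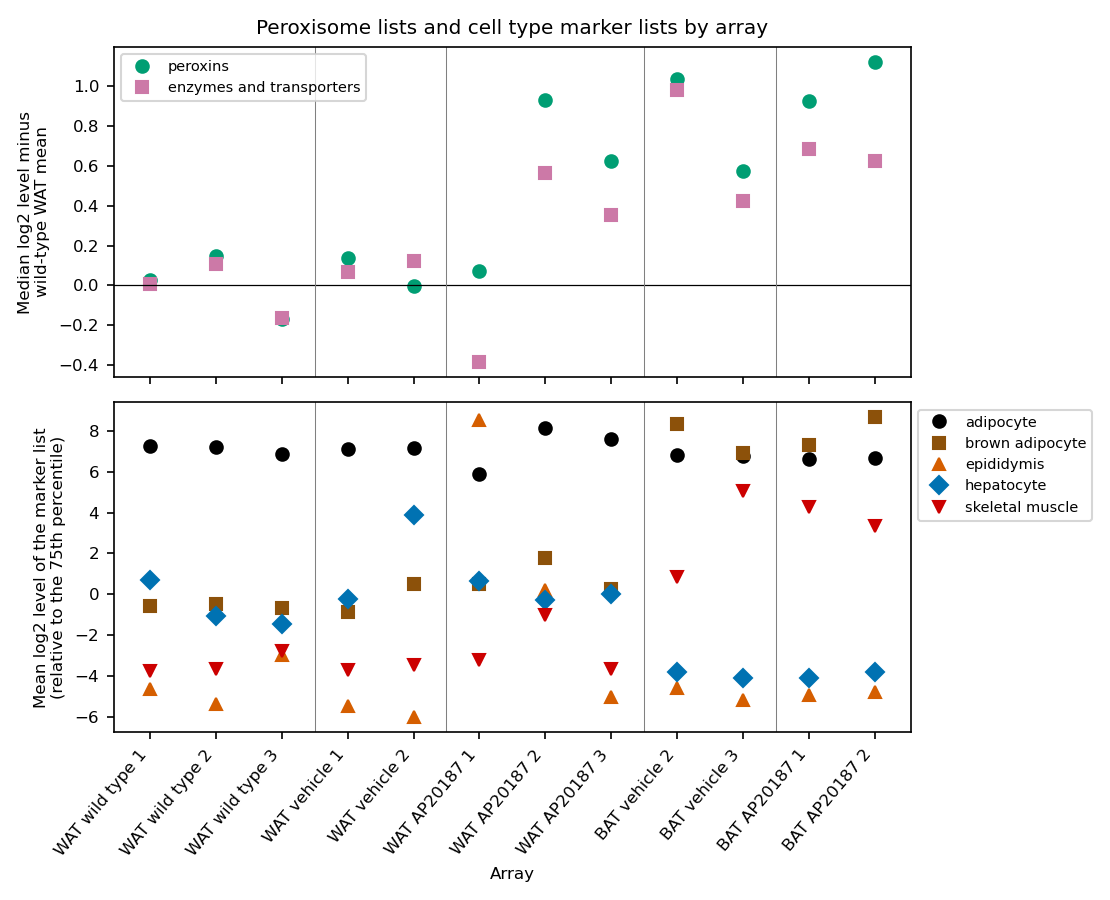
Median level of the peroxins and of the enzymes and transporters on each array, minus the mean of the wild-type arrays, above the mean level of 5 lists of cell type markers (all log2). The first WAT AP20187 array has peroxin and enzyme medians of 0.07 and -0.39 with the highest epididymis level, the second 0.93 and 0.57, and the BAT arrays 0.57 to 1.12 and 0.42 to 0.98.

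On the scale of that plot, the peroxin median was 0.07, 0.93 and 0.63 on the WAT AP20187 arrays and lay from -0.17 to 0.15 on the vehicle and wild-type WAT arrays. The BAT arrays lay at 1.04 and 0.57 with vehicle and at 0.93 and 1.12 with AP20187. The peroxin medians of the second and the third treated white-fat arrays therefore lay within the range of the brown-fat medians. Single peroxins often did not. On both arrays Pex2, Pex6, Pex7 and Pex10 lay below every BAT array, and Pex5, Pex16 and Pex19 lay above every BAT array. Tissue and slide cannot be told apart here either. For the enzymes and transporters the treated WAT arrays lay at -0.39, 0.57 and 0.36, and the BAT arrays from 0.42 to 0.98. These medians over 12 and 16 genes are a description of each array.

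The transgene without ligand was compared with the wild type in white fat, the vehicle injection being part of the same difference. No member passed with limma, the only tool run, and none had an unadjusted p under 0.05. Over all features 8 passed (0.0327%) and 1229 did so unadjusted. The peroxin median was 0.06 and that of the enzymes and transporters 0.08, beside 0.02 for all features. Among the peroxins the widest differences were those of Pex13, at 4.22 and 4.47 with vehicle and 3.98, 4.27 and 3.76 in the wild type (0.34), Pex14 (0.32) and Pex16 (-0.24). Among the enzymes they were Crot, at 2.14 and 2.12 with vehicle and 2.38, 2.53 and 3.001 in the wild type (-0.51), Abcd2 (0.37), Phyh (0.32) and Ehhadh (-0.24). Of the 28 members 3 (Pex14, Abcd3 and Phyh) did not overlap and were higher with vehicle, beside 19.4% of features, and 2 (Pex16 and Crot) did not overlap and were lower, beside 15.3%.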

How the data were processed

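RNA of 12 grouped arrays (1 more had contradictory tissue labels) was measured on Agilent 1-colour arrays. The spot intensity used was the processed signal, background-corrected by Agilent Feature Extraction 10.7.1.1, per the file headers; the deposited files were not yet scaled between arrays. The value table of the series, deposited by the authors, holds the same signals where it is filled (98.97 to 99.18% of values equal within 0.1%), and 0 of its columns went unused. It is blank for 35.7 to 40.42% of probes on the BAT arrays and for 14.89 to 32.83% on the grouped WAT arrays. Here log2 of each intensity minus the array's 75th percentile of non-control probes was taken from the deposited signal, so values are on a log2 scale set in this work; outlier spots were dropped, spots of a probe averaged, and a probe kept if some group had it well above background on all of its arrays. The brightest probe stood for a gene. Probes were named through accessions of the RefSeq table for GRCm38.p6 (26056 of 55681 probes). limma 3.58.1 in R 4.3.3 was fitted to 12 arrays with 7 residual degrees of freedom, after the fit was tested on simulated data. The number of arrays limits precision.

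The members and lists were chosen with earlier results of these data known. Array values are given for each member past the threshold and, in each comparison, for the 3 peroxins and 4 enzymes or transporters with the largest changes; up to 4 genes of the other lists with the smallest p are named, and further genes were chosen after their values were seen; 1 gene that the rule would name is not reported here. Alternatives covered scaling, background, filters, probe choice, the arrays fitted, slide, replicate number and each array left out; 2 on local weak areas were chosen after seeing the data.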

Additional observations from a re-analysis of the deposited data

How the results depend on the processing

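In all, 28 settings were tried, 12 of them leaving out 1 array, and no result named above turned its direction while past the threshold. "Contradictory array" below is the one with both tissue names, "weak areas" those added after seeing the data. WAT AP20187 against vehicle: the 550 features became 0 with only the compared arrays (3101 at an unadjusted p under 0.05), 0 with the contradictory array as BAT vehicle (3907) and 1905 as WAT vehicle, 325 with the mean of probes, 5512 with no filter, 1369 with probes above background everywhere, 6 with normexp, 91 with the percentile over detected probes, 3 with quantile scaling, 0 with the replicate number as a block (5130), 7 with slide as a block, 0 from the authors' value table (1796) and 2388 without weak areas and the first AP20187 array; members past it were 1 with the contradictory array as WAT vehicle and 5 in the last setting. BAT AP20187 against vehicle: the 2 features became 0 with the compared arrays (1355), the contradictory array as BAT vehicle (2006), no filter (1980), the replicate block (1244), slide (1693), the value table (719) and both epididymal arrays out (2872), 1 with normexp or detected probes, and 4 with quantile scaling, the contradictory array as WAT vehicle, or weak areas and the first array out. Tissue difference of the response: the 0 features became 2 with the contradictory array as WAT vehicle or quantile scaling, 1 with normexp, 9 with detected probes, 429 with both epididymal arrays out and 457 without weak areas and the first array, where the enzyme median went from -0.07 to 0.29. WAT vehicle against wild type: the 8 features became 4 with the compared arrays, 2 and 0 (1532) with the contradictory array as BAT or WAT vehicle, 3 with normexp, 5 with quantile scaling, 2 with the replicate block, 61 with slide, 0 from the value table (958), 1 with probes above background everywhere, 22 with both epididymal arrays out and 37 without weak areas and the first array. WAT AP20187 against wild type: the 2171 features became 0 with the compared arrays (6717), the contradictory array as BAT vehicle (5247), the replicate block (6647), slide (1303) and the value table (4672), 3281 with that array as WAT vehicle, 7031 with no filter, 226 with normexp, 843 with detected probes, 110 with quantile scaling, 3296 with probes above background everywhere, 1131 with both epididymal arrays out and 5539 without weak areas and the first array. Its 1 member became 0 with the compared arrays, the contradictory array as BAT vehicle, normexp, detected probes, quantile scaling, either block, the value table and both epididymal arrays out, 2 with that array as WAT vehicle, no filter, probes above background everywhere and weak areas out, and 12 with weak areas and the first array out; its peroxin median became 0.22 with normexp and 0.21 with detected probes, and its enzyme median -0.17, -0.14 and -0.21 with normexp, detected probes and quantile scaling. BAT against WAT vehicle: the 5732 features became 0 with the contradictory array as BAT vehicle (3162), 11152 with no filter, 3680 from the value table and 8654 without weak areas and the first array; its 7 members became 0, 12 with both epididymal arrays out, 1 from the value table and 11 in the last setting, the peroxin median -0.22 from the value table, and the enzyme median 0.28 with normexp, 0.26 with quantile scaling and -0.12 from the value table. With the replicate number as a block 3904 features and 6 members passed there, Abcd2 being lost at -2.61; same-numbered arrays did not deviate together (correlations of -0.228 to 0.105), so the numbers were not taken as pairs. Slide as a block could not be fitted for BAT against WAT. Leaving out 1 array in turn gave, for features, members past the threshold, peroxin median and enzyme median: WAT AP20187 against vehicle 0 to 2257, 0 to 4, 0.26 to 0.69 and -0.09 to 0.27; BAT AP20187 against vehicle 0 to 22, 0 to 0, -0.07 to 0.42 and -0.28 to 0.24; the tissue difference of the response 0 to 399, 0 to 1, 0.13 to 0.63 and -0.17 to 0.26; WAT vehicle against wild type 0 to 61, 0 to 0, -0.00 to 0.14 and -0.01 to 0.14; WAT AP20187 against wild type 0 to 5343, 0 to 11, 0.30 to 0.75 and -0.01 to 0.34; BAT against WAT vehicle 2975 to 8044, 4 to 9, 0.37 to 0.83 and 0.39 to 0.93. The causes of these changes were not tested. Signal over background limits Crot on the second WAT AP20187 array.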

Other observations

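The array with contradictory tissue labels, BAT in its title and WAT in its source name, entered no comparison. Its levels were 0.00 and 0.13 for the peroxin and enzyme medians relative to the wild-type WAT mean. Phyh lay at 5.17, Amacr at 2.70, Abcd2 at 1.19, Pex2 at 2.80 and Pex7 at 2.59 on it, each within the range of the WAT arrays and outside that of the BAT arrays.

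Peroxisomal enzymes best known from liver and kidney varied between single white-fat arrays. Uox, Agxt and Hao1 were highest on the second WAT vehicle array, at 2.50, 0.34 and -1.70, the array with the highest hepatocyte markers. Dao and Pipox lay at -2.17 and -2.46 on the third WAT AP20187 array, where the other WAT arrays lay from 1.08 to 3.13 and from 0.56 to 1.49.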
